A study of Mus musculus with 15 samples.

Results

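Nucleosome positions on chromatin carrying 2 phosphorylated forms of RNA polymerase II (pol-II) were compared in stimulated mouse fibroblasts. The comparison rests on 3 of the 15 libraries of the series, namely every library made with a pol-II antibody: 1 against pol-II phosphorylated at serine 5 of its C-terminal domain (S5P) and 2 replicates against pol-II phosphorylated at serine 7 (S7P). All 3 came from 3T3 cells, an immortalised mouse fibroblast line, treated with TNF-α at 5 ng/ml for 1 h, without any knock-down or other added agent. The nucleosome occupancies are those the authors deposited for 25881 transcription start sites (TSSs), of which the 13559 with a coverage score above 100 were analysed. ChIP-MNase recovers large crosslinked chromatin fragments with an antibody and digests them on the beads with micrococcal nuclease, so that the reads show where nucleosomes lie on the recovered alleles. S5P is 1 library, so its antibody and that library cannot be told apart.

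The C-terminal domain of the largest pol-II subunit is a long tail of repeated heptapeptides that is phosphorylated as transcription proceeds. Serine 5 is phosphorylated by the kinase of TFIIH when pol-II initiates, and this form is most abundant near the TSS, while serine 7 phosphorylation is found on pol-II near the promoter and further into the gene body. At most expressed mammalian genes the TSS lies in a nucleosome-depleted region (NDR), which is flanked by a well-positioned −1 nucleosome upstream and a +1 nucleosome downstream. The +1 nucleosome is the first that pol-II meets after leaving the promoter, close to where it commonly pauses. TNF-α activates the transcription factor NF-κB, which induces genes for chemokines, cytokines and its own inhibitors within an hour.

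The 3 libraries had nearly equal mean occupancies of 0.962 and 0.975 for S7P replicates 1 and 2 and 0.973 for S5P, and each was divided by its own mean. The study states sequencing depth as a range over its samples and not for each library, so the share of 10 bp bins with any fragment stands in for it. It was 69.2% in S7P replicate 1, 80.0% in S7P replicate 2 and 81.2% in S5P. At active promoters 79.0%, 86.8% and 90.6% of bins were filled, and at inactive promoters 53.1%, 65.6% and 58.5%, so S5P was the fullest library at active promoters and lay between the S7P replicates at inactive ones. Whether these shares contribute to the differences described next was not tested. Promoters counted as active (6397) where their expression before stimulation exceeded 0.02 of the average promoter and as inactive (2290) where it was 0, and inducible promoters (112) had a log2 difference upon TNF-α above 0.35 in the authors' annotation, which takes it from public arrays. The remaining 4760 fell in none of these classes. All 12 promoters of fibroblast marker genes with sufficient coverage had expression above 0, and 11 were in the active class. Of 23 promoters of myeloid markers, 19 also had expression above 0, but 2 were in the active class, 4 were inactive and 17 fell in none.

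At active promoters the S5P profile had a deeper NDR and a taller +1 nucleosome than either S7P replicate. The lowest mean occupancy upstream of the TSS was 0.683 at −95 bp in S7P replicate 1, 0.658 at −75 bp in S7P replicate 2 and 0.358 at −45 bp in S5P. Closer to the start the profiles differed more, and at −25 bp the values were 0.793, 0.687 and 0.368. The +1 peak reached 1.53 and 1.56 at 135 bp in the S7P replicates and 2.28 at 145 bp in S5P. S5P was thus 1.48 times the S7P mean at this peak, a difference of 0.739, against a gap of 0.0273 between the S7P replicates.

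**Figure D1:**
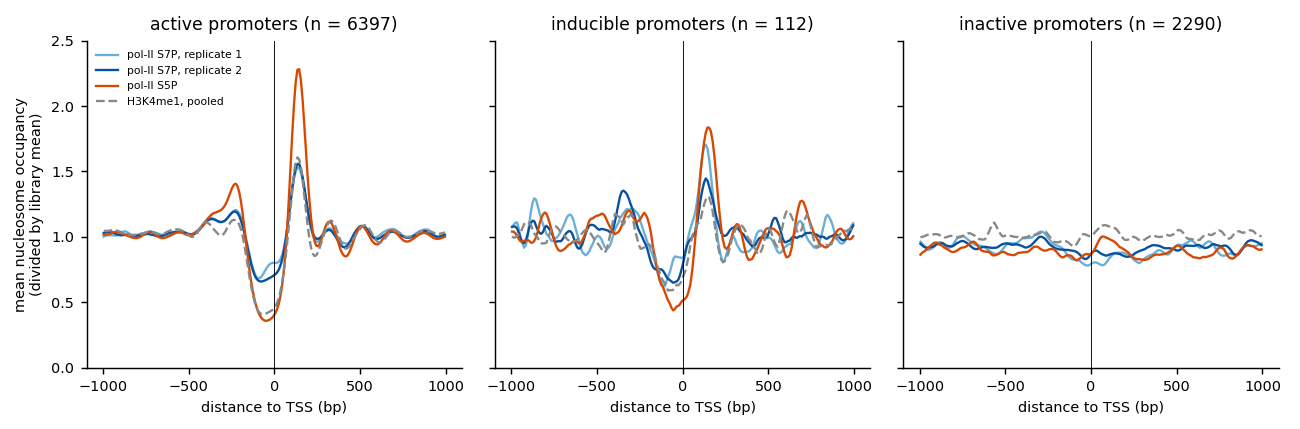
Mean nucleosome occupancy, divided by the mean of each library, against distance to the TSS in bp for active, inducible and inactive promoters. Lines show the 2 S7P replicates in blue, S5P in orange and pooled H3K4me1 of stimulated fibroblasts as a dashed grey line. At active promoters the orange line goes down to 0.358 and up to 2.28, beyond both blue lines, while at inactive promoters no line shows a trough of that depth.

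The differences were largest around the TSS. In the active profile S5P lay below both S7P replicates in all 15 bins of the TSS window (−150 to 0 bp). It lay above both in all 10 bins of the +1 window (80 to 180 bp). Over the 200 bins of the profile S5P was below both in 112, above both in 51 and between them in 37. Lying outside the S7P pair was thus common elsewhere too, and neighbouring bins are not independent, so size rather than these counts marks the TSS region. The largest difference to the S7P mean was 0.741, at 145 bp, and the largest gap between the S7P replicates at any of the 200 bins was 0.106. The −1 nucleosome window (−300 to −200 bp) held 1.17 and 1.16 in S7P and 1.33 in S5P. Beyond the +1 nucleosome the libraries differed less. The trough after the +1 peak, at 255 bp in each library, was 0.963 and 0.984 in S7P and 0.929 in S5P, and the +2 peak was 1.07, 1.05 and 1.12.

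As a distance over the whole profile, the square root of the summed squared differences of square-rooted occupancy was 0.196 between the S7P replicates at active promoters. It was 1.23 between S5P and S7P replicate 1 and 1.09 between S5P and S7P replicate 2. At inducible promoters, which are few, the S7P replicates were themselves 0.764 apart, and S5P was 1.24 and 1.04 from them. At inactive promoters the distances were 0.314 within S7P and 0.519 and 0.425 to S5P. The nucleosomal period at active promoters, fitted to the first 3 autocovariance peaks, was 185 bp and 175 bp in S7P and 175 bp in S5P. The S7P peaks were unevenly spaced, however, so for S7P the fitted value is no clear nucleosomal period and is not compared further. The first peak lay at 148 and 155 bp in S7P, 179 bp in S5P and 186 bp in pooled H3K4me1. The second lay at 362 and 365 bp in S7P and 367 bp in S5P. What sets the first S7P peak was not tested. The third lay at 517 and 506 bp in S7P and 528 bp in S5P.

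The depth of the NDR was summarised as the NDR ratio, which sets mean occupancy between −150 and 0 bp over the mean between −1000 and −500 bp and is low where the TSS is free of nucleosomes. At active promoters it was 0.735 and 0.687 in the S7P replicates (mean 0.711 ± 0.0338 SD, n = 2) and 0.444 in S5P. At inducible promoters it was 0.715 and 0.684 in S7P and 0.530 in S5P. At inactive promoters S7P gave 0.874 and 0.933 and S5P 0.937, so that S5P exceeded the higher replicate only slightly. That direction turned at the 216 inactive promoters with 80% or more of bins filled in each library, where the difference from mean S7P was −0.0483. S5P lay below both S7P replicates at active and inducible promoters, by 0.267 and 0.169 from their means, against gaps within S7P of 0.0478 and 0.0315. An exact two-sided permutation of the 3 libraries gave p = 0.333 for active and for inducible promoters, the smallest that 3 libraries allow, so no class value could pass 0.05. The same exact permutation gave p = 0.667 for inactive promoters.

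Replicates of another antibody give a sense of how far such ratios can move. In the 4 pairs of H3K4me1 libraries of fibroblasts (control and BAF knock-down, with and without TNF-α), the NDR ratio of active promoters differed between replicates by 0.00965 to 0.164, less than the 0.267 between S5P and S7P. Those libraries have single-end reads and the pol-II libraries paired-end reads. In pooled H3K4me1 of stimulated fibroblasts, which is not selected for pol-II and was deposited as 1 set, the ratio at active promoters was 0.456, close to S5P. The single H3K4me1 libraries lay higher, between 0.529 and 0.699. Those of stimulated control cells, 0.655 and 0.587, each stood further from the pooled set than from one another. The pooled set combines replicates of fibroblasts other than the control cells, so pooling, cells and preparation cannot be told apart in that contrast. Gaps within pairs may therefore not cover the spread between separate preparations, which also enters the comparison of S5P with S7P.

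**Figure D2:**
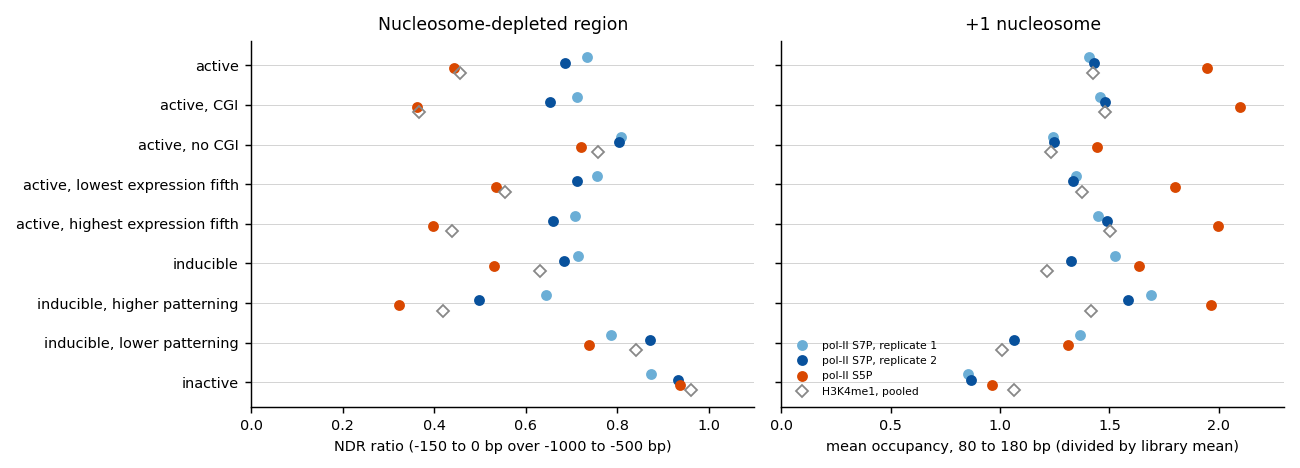
NDR ratio on the left and mean occupancy of the +1 window on the right, divided by the mean of each library, for 9 promoter groups. Filled points are single libraries (light and dark blue S7P replicates, orange S5P) and open diamonds pooled H3K4me1 of stimulated fibroblasts, offset vertically for visibility. In active promoters with a CpG island S5P stands at 0.363 on the left and 2.10 on the right, apart from both S7P replicates, whereas at inactive promoters the points of the left panel lie close together.

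The +1 nucleosome window showed the same order of libraries at active promoters, with 1.41 and 1.43 in S7P and 1.95 in S5P, a ratio of 1.37 to the S7P mean. The gaps between H3K4me1 replicates in this window were 0.0861 to 0.118, below the 0.530 between S5P and the S7P mean. At inducible promoters the S7P replicates held 1.53 and 1.32 and S5P 1.64, so the difference of 0.211 was about as large as the gap of 0.202 within S7P (exact permutation p = 0.667). Inactive promoters had 0.854 and 0.867 in S7P and 0.961 in S5P. In each class S5P thus had the highest +1 value, but at inducible promoters its difference from the S7P mean barely exceeded the gap within S7P.

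CpG islands (CGIs), stretches rich in CG dinucleotides that cover most promoters of broadly expressed genes, were called within 200 bp of the TSS. At 4936 active CGI promoters the NDR ratio was 0.713 and 0.652 in S7P and 0.363 in S5P. At 1461 active promoters without a CGI it was 0.808 and 0.805 in S7P and 0.720 in S5P. The difference from mean S7P was −0.320 in the first group and −0.0859 in the second, and in both groups S5P lay below both replicates. The +1 peak of CGI promoters was 1.59 and 1.63 in S7P and 2.49 in S5P, and without a CGI it was 1.32 in each S7P replicate and 1.59 in S5P. Inducible promoters showed the same order, since the ratio was 0.609, 0.544 and 0.358 (S7P replicates 1 and 2, then S5P) at 54 with a CGI and 0.816, 0.816 and 0.693 at 58 without. At 396 inactive CGI promoters, in contrast, S5P (0.828) lay between the S7P replicates (0.883 and 0.822).

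S5P lay below both S7P replicates at weakly and strongly expressed active promoters alike. At the 1280 active promoters with the lowest expression before stimulation the ratio was 0.755 and 0.713 in S7P and 0.535 in S5P, and at the 1280 with the highest it was 0.709, 0.660 and 0.396. The difference from mean S7P was −0.199 and −0.288. In the +1 window the weakly expressed promoters held 1.35 and 1.33 in S7P and 1.80 in S5P, and the strongly expressed ones 1.45, 1.49 and 2.00. A TATA box, the sequence TATAAA that TBP binds, lay whole within −45 to −16 bp on the sense strand of 55 active promoters (0.860%, against 2.44% of all 25738 promoters with sequence). At these the ratio was 0.862 and 0.818 in S7P and 0.515 in S5P, compared with 0.734, 0.686 and 0.444 at the 6342 active promoters without one.

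Nucleosome patterning, which is how closely a promoter follows the mean active profile, was taken from H3K4me1 of non-stimulated fibroblasts and divides the inducible promoters at their median. The 56 more patterned inducible promoters had an NDR ratio of 0.644 and 0.499 in S7P and of 0.322 in S5P. The 56 less patterned ones had 0.787 and 0.872 in S7P and 0.737 in S5P. S5P was thus below both replicates in either group, with differences from their means of −0.249 and −0.0923, but the gaps within S7P were 0.146 and 0.0849. The exact permutation p was 0.333 in the more patterned group and 0.667 in the other, where the replicates differ nearly as much as the antibodies do. The +1 window of the less patterned group held 1.36 and 1.06 in S7P and 1.31 in S5P. The 1280 least patterned active promoters had 0.886 and 0.863 in S7P and 0.792 in S5P, a difference of −0.0822, whereas the other 5117 had 0.697, 0.643 and 0.356, a difference of −0.314.

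Single promoters were then compared. At active promoters the median TSS occupancy was 0.686 and 0.634 in S7P and 0.258 in S5P, and the median over promoters of S5P minus mean S7P was −0.294. Inducible promoters had medians of 0.713, 0.588 and 0.389 and a median difference of −0.241, and the median difference was 0 at inactive promoters and −0.211 over all 13559. Between the S7P replicates the median difference was −0.0267 at active, −0.0448 at inducible and 0 at inactive promoters. S5P lay below both S7P replicates at 3766 (58.9%) of active, 61 (54.5%) of inducible and 641 (28.0%) of inactive promoters, where 46.2% of all promoters did so. It lay above both at 918 (14.4%) of active and 21 (18.8%) of inducible promoters, against 21.4% of all. Active and inducible promoters were therefore above the background in the first count and below it in the second. With 80% or more of bins filled in each library, which left 4808 promoters, S5P was below both at 65.9% of all, 69.5% of active, 68.9% of inducible and 40.7% of inactive promoters, so that only the inactive class stood well apart from the background.

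**Figure D3:**
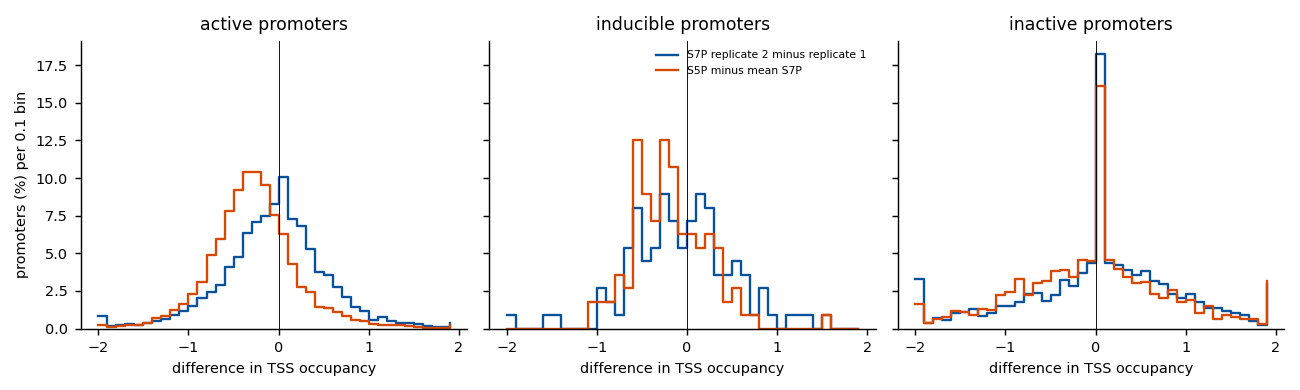
Distribution of the difference in TSS occupancy (−150 to 0 bp, divided by the mean of each library) over promoters of each class, as the percent of promoters per bin of 0.1. Orange is S5P minus mean S7P and blue is S7P replicate 2 minus replicate 1, with values beyond the axis counted in the outermost bins. The orange curve is displaced to negative values at active promoters (median −0.294) and centred on 0 at inactive ones.

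In the +1 window S5P was above both S7P replicates at 3653 (57.1%) of active and 55 (49.1%) of inducible promoters, against 48.6% of all, so the inducible share was near the background. The median difference was 0.458 at active and 0.221 at inducible promoters. The patterning level of each library, computed with the same template, was 4.33 and 4.94 in S7P and 10.6 in S5P at the median active promoter and 4.12, 3.88 and 8.10 at the median inducible promoter. It was above both replicates at 4136 (64.7%) of active and 64 (57.1%) of inducible promoters, where 51.7% of all promoters were.

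No single promoter passed the test of the difference on occupancy itself. With limma, S5P against S7P gave 0 promoters at an adjusted p under 0.05 for TSS occupancy (0% of 13559), 0 for +1 occupancy and 0 for patterning, and the smallest adjusted p were 0.706, 0.0902 and 0.548. At an unadjusted p under 0.05 there were 736 (5.43%), 1514 (11.2%) and 1113 (8.21%) promoters. On square-rooted occupancy the same fit called 1.52% of promoters for the +1 window, all higher in S5P, and 0 for TSS occupancy and patterning, where 789 and 811 had an unadjusted p under 0.05. With 1 residual degree of freedom, the median standard error of a difference in TSS occupancy was 0.398, larger than the median difference of active promoters. Values of single promoters that follow are therefore descriptions. When the 8 single H3K4me1 libraries of fibroblasts were added to the fit, 20 promoters passed for TSS occupancy, 9 lower (0.0664% of all) and 11 higher (0.0811%) in S5P. For +1 occupancy 95 passed, 5 lower (0.0369%) and 90 higher (0.664%), and for patterning 0. Of the 90, 13 were active and 39 inactive, where 6397 and 2290 of all 13559 promoters were. Many of the 90 had an occupancy of 0 in both S7P replicates, so that replicate pair showed no spread. Examples are H3c10, Ifna5 and Olfr55, with SEs of 0.0112, 0.0125 and 0.0222. The numbers of calls also depend on the S7P replicates. Without replicate 1 there were 77 TSS calls (57 lower and 20 higher), and without replicate 2 there were 90 (67 lower and 23 higher). The +1 calls were then 103 (30 lower and 73 higher) and 120 (38 lower and 82 higher). In those fits 1 library was compared with 1, and the spread came only from the single-end H3K4me1 libraries. With both replicates, the median share of filled bins in S5P was 57.8% over the TSS calls and 41% over the +1 calls, against a median of 90% over all promoters. Across promoters, TSS occupancy correlated weakly between any pair of libraries, with Pearson's r = 0.254 between the S7P replicates and 0.220 and 0.316 between them and S5P over 13559 promoters, whose values share the local scaling of the deposited files. The correlation between the S7P replicates thus lay between the correlations of S5P with each of them.

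TNF-α target genes were the first group of genes considered. Of 41 annotated genes of a list of TNF-α and NF-κB response genes, 30 had a promoter of sufficient coverage, with 36 promoters in all, 29 of them inducible. The mean profile of the 29 had an NDR ratio of 0.580 and 0.587 in S7P and 0.441 in S5P, and the median difference in TSS occupancy was −0.154. S5P was below both S7P replicates at 14 of the 29 (48.3%, against 46.2% of all promoters) and above both at 5. At 19 of the 29, 80% or more of bins were filled in each library, a setting in which the background was higher. The share of the 29 was thus near that of all promoters and below the 54.5% of inducible ones. It shows no excess over either and does not set these genes apart by a lower S5P value. In the +1 window S5P was above both at 16 (55.2%, against 48.6%) and below both at 7 (24.1%, against 19.7%).

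The promoter sequences below are shown to set the 3 inducible promoters of the list with the most negative difference beside the 2 whose difference was closest to 0. They are the 200 bases upstream of the start in mm9, read 5′ to 3′ on the strand of the gene, leaving out bases that are annotated as untranslated region of a longer transcript. Capitals mark matches to the NF-κB motif on either strand. For Cx3cl1 (chromosome 8, start at 97296080, plus strand), 171 of the 200 bases are so annotated and none are printed.
Nfkb2, chr19:46379985-46380184, plus strand: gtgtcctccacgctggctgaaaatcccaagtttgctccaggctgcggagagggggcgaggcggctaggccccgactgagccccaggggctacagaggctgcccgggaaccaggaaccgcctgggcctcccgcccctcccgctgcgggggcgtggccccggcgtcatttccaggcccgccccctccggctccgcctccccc
Tnfaip3, chr10:18735217-18735353, minus strand: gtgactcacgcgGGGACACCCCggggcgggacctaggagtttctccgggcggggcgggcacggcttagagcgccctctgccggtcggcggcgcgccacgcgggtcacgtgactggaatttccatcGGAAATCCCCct
Tnip1, chr11:54776443-54776642, minus strand: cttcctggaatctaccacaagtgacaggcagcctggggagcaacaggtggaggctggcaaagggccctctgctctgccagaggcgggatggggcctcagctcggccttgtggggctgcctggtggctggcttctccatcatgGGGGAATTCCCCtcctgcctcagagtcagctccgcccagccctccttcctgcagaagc
Lif, chr11:4166898-4167097, plus strand: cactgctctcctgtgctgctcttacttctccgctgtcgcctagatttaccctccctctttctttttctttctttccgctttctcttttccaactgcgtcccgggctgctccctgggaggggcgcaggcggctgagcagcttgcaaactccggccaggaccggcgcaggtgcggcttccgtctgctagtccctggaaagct

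The Tnfaip3 window held 2 NF-κB motifs, beginning at −125 and −12 bp, and the Tnip1 window held 3 overlapping matches in 1 palindrome that begins at −58 bp. No match was found in the Nfkb2 or Lif window. Of all high-coverage promoters 7.26% held such a motif in this window, and of the 112 inducible promoters 25.9% (29) did. The GC box (GGGCGG on either strand), the site of Sp1, occurred 2 times at Nfkb2, 3 times at Tnfaip3, once at Tnip1 and not at Lif, and 40.2% of all promoters with sequence held one. The Nfkb2 and Tnfaip3 starts have a CGI, and these Tnip1 and Lif starts do not.

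Nfkb2 encodes the p100 precursor of the non-canonical NF-κB pathway and has 3 annotated starts on chromosome 19. At the middle start (46380185) TSS occupancy was 1.03 and 0.809 in S7P and 0.0629 in S5P, a difference of −0.855 ± 0.389 (SE), with a limma adjusted p of 0.746. The first start (46379227) was at 0.177, 0.338 and 0.0183, and the last (46380420) at 0.741, 1.26 and 1.25, so that S5P was below both replicates at the first and the middle start and between them at the last. Tnfaip3, the ubiquitin-editing inhibitor A20, had 1.24 and 0.313 in S7P and 0.0985 in S5P at its upstream start (18735216), with the S7P replicates far apart. At its other start (18731769) it had 1.17, 0.924 and 1.01.

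The inhibitors of NF-κB differed in the order of the libraries. Nfkbie (IκBε) had 0.275 and 0.400 in S7P and 0.0702 in S5P, below both. Nfkbib (IκBβ) was empty in this window in both S7P replicates and at 0.0265 in S5P, while its +1 window held 1.47 and 1.18 in S7P and 3.15 in S5P. Nfkbiz (IκBζ) showed the opposite order, with 0.381 and 0.522 in S7P and 0.807 in S5P, and a +1 window of 2.43, 2.3 and 1.33. Tnip1, which binds A20, had 0.678, 0.167 and 0.444 at the start whose sequence is shown, where S5P lay between the replicates.

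Chemokine genes showed lower S5P occupancy at several starts. Ccl2, a monocyte attractant, had 0.743 and 0.420 in S7P and 0.0863 in S5P, and its neighbour Ccl7 had 0.257, 0.314 and 0.0949. Ccl20 had 1.26, 0.576 and 0.338, and Cx3cl1 had 0.761, 0.824 and 0.190. In each of these 4 S5P was below both replicates. Ccl5 (0.945, 1.17 and 1.03) and Cxcl2 (0.936, 0 and 0.571) lay between them, and Cxcl10 was at 0, 0.207 and 0. Other targets with S5P below both were Ier3, an early response gene (0.506, 0.538 and 0.0206), Irf1, an interferon-regulatory transcription factor, at the first of its starts by coordinate (0.757, 0.341 and 0.0641), Zfp36, which destabilises cytokine mRNAs (0.0873, 0.570 and 0.0202), and Rnd1, a small GTPase (0.213, 0.545 and 0.0254). Growth factor and cytokine genes included the exceptions. Csf1 had 0.268 and 0.768 in S7P and 1.23 in S5P, Csf2 0.222, 0.447 and 0.597, and Lif, at its upstream start, 0.527, 0 and 0.785, with S5P above both in each case. The Lif start whose sequence is shown had 0.236, 1.42 and 0.848, with S5P between the replicates. Il6 (2.13, 1.18 and 1.88) lay between.

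**Figure D4:**
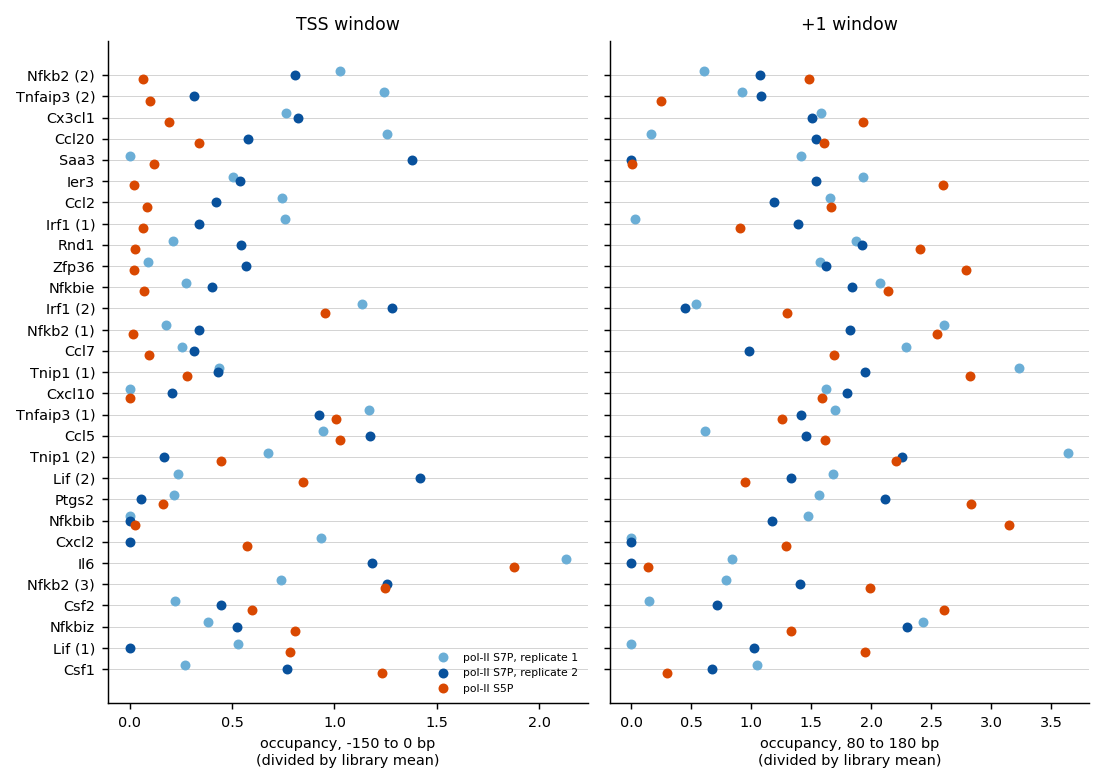
Occupancy of the TSS window on the left and the +1 window on the right, divided by the mean of each library, at the 29 inducible promoters of TNF-α and NF-κB response genes. Points are single libraries (blue S7P replicates, orange S5P), rows are ordered by the difference between S5P and mean S7P in the TSS window, and starts of one gene are numbered by coordinate. In most of the upper rows, Saa3 excepted, orange points lie left of both blue points, and in the lowest rows, down to Csf1 at 1.23, they lie to the right.

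Immediate early genes, which respond to stimulation without new protein synthesis, had 13 promoters with sufficient coverage out of 31. Their NDR ratio was 0.713 and 0.753 in S7P and 0.496 in S5P, and S5P was below both at 7 (53.8%, between the 46.2% of all and the 58.9% of active promoters). Klf6 had a TSS occupancy of 0.870 and 0.695 in S7P and 0 in S5P. Junb, a subunit of AP-1, had 0.631, 0.984 and 0.216, and the nuclear receptor gene Nr4a1 had 0.955, 0.488 and 0.170 beside a +1 window of 2.3, 2.82 and 3.33. Fosl1, also of AP-1, had 0.605 and 0.479 in S7P and 0.731 in S5P.

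Ribosomal protein genes, among the most strongly transcribed in growing cells, showed lower S5P occupancy at most starts. Of 75 promoters (68 genes, with paralogs and pseudogenes that the name rule also takes), S5P was below both S7P replicates at 60 (80.0%). The share was 46.2% over all promoters, 58.9% over active ones and 64.4% over active ones with a CGI. S5P was above both at 3. Of the 75, 67 had a CGI and 62 had 80% or more of bins filled in each library. At that filling the shares of all and of active promoters were higher too. The NDR ratio of the 75 was 0.784 and 0.640 in S7P and 0.314 in S5P. The annotation gives expression per transcript, and 36 of the 75 were in the active class. Rpl36al had 1.70 and 1.47 in S7P and 0.255 in S5P (difference −1.33 ± 0.365 SE, limma adjusted p = 0.746), and a +1 window of 1.2, 1.67 and 3.13. Rpl22 had 1.22, 1.40 and 0.192 beside 0.734, 0.878 and 3.40. The opposite order was found at Rpl10a (0.868, 1.31 and 1.5) and at Rpl3l (0.553, 0.580 and 1.27), a paralog of Rpl3 that is used in muscle.

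Replication-dependent histone genes, short intronless genes in clusters that are transcribed in S phase, had the largest difference in NDR ratio and in median TSS occupancy among the lists. At 65 promoters the NDR ratio was 1.03 and 0.980 in S7P, close to the level of the flank, and 0.394 in S5P. Pooled H3K4me1 of stimulated fibroblasts had 0.474. S5P was below both S7P replicates at 43 (66.2%, against 46.2% of all) and above both at 4 (6.15%, against 21.4%), and in the +1 window it was above both at 49 (75.4%, against 48.6% of all). The median +1 occupancy was 0 in each S7P replicate and 0.665 in S5P. H2bc11 had a TSS occupancy of 3.26 and 3.14 in S7P and 0.0274 in S5P, the largest difference of the list at −3.17 ± 0.738 SE (limma adjusted p = 0.746). H4c11 had 2.04, 1.37 and 0, and H2ac6 had 3.22, 3.49 and 1.23. Exceptions were H1f1, a linker histone gene (0, 0.628 and 1.1), and H1f6 (0.135, 1.26 and 1.58). These genes have many near-identical copies. The paper kept only fragments with a unique position among promoter regions, so fragments shared by several copies were dropped, and single members are uncertain. Whether this contributes to the medians of 0 was not tested. Only 18 of the 65 had 80% or more of their bins filled in each library.

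Small nuclear and nucleolar RNAs showed no deeper NDR with S5P. Most nucleolar RNAs lie in introns of host genes and are cut out of the host transcript, so their annotated 5′ end is not a start of pol-II. At 97 promoters the ratio was 0.997 and 0.982 in S7P and 1.08 in S5P, the median difference in TSS occupancy was 0.0889, and S5P was above both replicates at 44 (45.4%, against 21.4% of all). Snord49b had 1.38 and 1.39 in S7P and 2.53 in S5P. Snora78, whose 5′ end was classed as active with a CGI, had 1.15, 0.789 and 0.171.

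**Figure D5:**
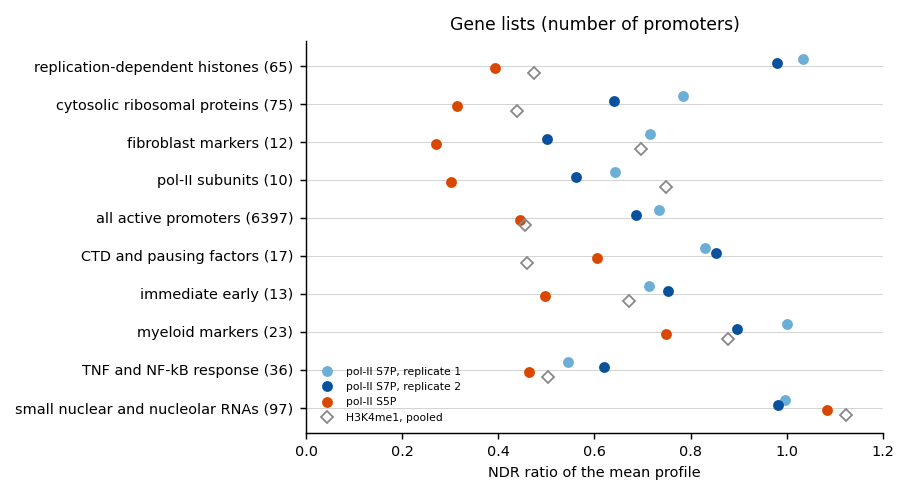
NDR ratio of the mean profile of each gene list, with the number of promoters in brackets. Filled points are single libraries (blue S7P replicates, orange S5P) and open diamonds pooled H3K4me1 of stimulated fibroblasts. Orange lies left of both blue points in all lists but the small nuclear and nucleolar RNAs (1.08), and the distance is widest for histone genes (0.394 against 1.03 and 0.980).

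Genes of the transcription machinery itself were mostly in the active class. At 17 promoters of C-terminal domain kinases, phosphatases and pausing factors the NDR ratio was 0.830 and 0.853 in S7P and 0.605 in S5P, and S5P was below both at 9 (52.9%, against 46.2% of all and 58.9% of active promoters) and above both at 5 (29.4%, against 21.4% of all). Rtf1, which acts with the PAF1 complex in elongation, had 0.812 and 1.02 in S7P and 0.0463 in S5P, and Paf1 had 1.13, 0.351 and 0. Supt6, a histone chaperone of elongating pol-II, had 0.307, 1.02 and 1.29, above both. Among 10 promoters of pol-II subunits the ratio was 0.644, 0.561 and 0.301, with S5P below both at 5 (50%, against the same 46.2% and 58.9%). Polr2j had 0.652 and 0.868 in S7P and 0.0162 in S5P beside a +1 window of 2.41, 1.69 and 3.79, whereas Polr2b had 0.476, 0.763 and 0.627. The median difference of the subunit genes was −0.315 and depended on the S7P replicate, at −0.0970 without replicate 1 and −0.514 without replicate 2. That of the kinases, phosphatases and pausing factors was −0.319, and −0.183 without replicate 1.

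At 12 promoters of fibroblast markers the ratio was 0.716 and 0.501 in S7P and 0.270 in S5P, and S5P was below both at 8 (66.7%, against 46.2% of all and 58.9% of active promoters). Fn1, the gene of fibronectin, had 0.993 and 1.05 in S7P and 0.241 in S5P, while S100a4 had 0.276, 0.446 and 0.621. At 23 promoters of myeloid markers, only 1 of which had 80% of its bins filled in each library, the ratio was 1.00, 0.897 and 0.749, with S5P below both at 8 (34.8%, against 46.2% of all) and above both at 7 (30.4%, against 21.4%). Their median difference was −0.193, and 0.127 without S7P replicate 1, so its sign rests on that library. Cd86 had 1.54 and 1.32 in S7P and 0.00685 in S5P, but only 34.5% of its bins were filled in S5P.

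The largest differences at well-filled promoters of expressed genes were also listed. Among 4511 promoters with a symbol, expression above 0 and 80% or more of bins filled in each library, S5P was below both S7P replicates by more than their gap at 1645 and above both by more than their gap at 297. Of all 13559 promoters, 23.1% and 12.2% met the same condition on the gap. The 10 largest negative differences all lay at CGI promoters. A CGI was present at 4936 of the 6397 active promoters and at 7615 of all 13559. The share among the promoters eligible here was not computed, so the count does not mark a trait of the 10. Abl2, a cytoplasmic tyrosine kinase gene (chromosome 1, start at 158488918), had 2.09 and 1.75 in S7P and 0.226 in S5P, a difference of −1.69 ± 0.405 SE (limma adjusted p = 0.746). Mlf2 had 2.02, 1.58 and 0.186, Slc35e3 had 1.29, 2.02 and 0.110, and Pex3, which is needed to form peroxisomes, had 1.54, 1.6 and 0.0821. The other 6 were Atpsckmt, Pde6d, Ccz1, Zfp668, Glrx5 and Agtpbp1. In the +1 window S5P was above both replicates at 9 of the 10, as at Glrx5 (1.38, 1.21 and 2.96), with Pex3 the exception. The share was 48.6% over all promoters and 57.1% over active ones. Occupancy is scaled to the surrounding kilobase, so the TSS and +1 windows of a promoter are not independent. Promoters chosen by a low TSS value may have a high +1 value for that reason, which was not tested.

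The 10 largest positive differences were at Zfp319, Alad, Spast, Psmb10, A930007I19Rik, Bnip2, Dut, Cdc42se1, Fbxo30 and Slc44a2, of which 7 had a CGI. Of the 6397 active promoters, 4936 had one. Zfp319 had 1.06 and 1.15 in S7P and 2.90 in S5P (difference 1.80 ± 0.447 SE, limma adjusted p = 0.746), and Alad, an enzyme of haem synthesis, had 0.260, 0.616 and 1.95. Psmb10, an immunoproteasome subunit, had 0.477, 0.954 and 2.19. The +1 window had the opposite order at 7 of these 10, as at Zfp319 (1.48, 1.55 and 0.191), so occupancy was high in one window where it was low in the other. Over all promoters S5P was below both replicates in the +1 window at 19.7%. These promoters too were chosen by the TSS window, to which the local scaling ties the +1 window, so the count is not separate support.

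Mcm5 and Mrpl49, expressed in fibroblasts, are promoters that the paper itself shows as examples for these antibodies, so they are not an independent choice. Mcm5, a subunit of the replicative helicase, had a TSS occupancy of 1.2 and 1.07 in S7P and 0.0849 in S5P. Its +1 window held 0.971, 0.133 and 1.97. Mrpl49, a mitochondrial ribosomal protein gene, had 0.610, 0.229 and 0.0698, and a +1 window of 1.80, 2.73 and 2.95. In both promoters S5P had the lowest occupancy at the TSS and the highest at the +1 position.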

How the data were processed

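ChIP-MNase libraries of TNF-α-stimulated 3T3 fibroblasts were sequenced with paired-end reads. The authors aligned reads to mm9 with bowtie per the paper's methods (the submitters' processing notes name Bowtie2 and bedtools), removed excess duplicates, kept mononucleosome-sized fragments and counted them in 10 bp bins relative to the surrounding kilobase. The deposited values are thus an occupancy signal without read counts, so the depth of each library is unknown (the study states a range over samples), and an empty bin was read as 0. The bins run from −1000 to 1000 bp of each TSS. Local scaling removes differences in total enrichment between promoters and makes values of sparsely covered promoters coarse. It also ties neighbouring windows of a promoter to each other, since a lower share in one raises the share of the rest. Rows carry no names and were taken in the order of the authors' promoter annotation. That order was checked against the coverage score. The annotation's coverage score and its expression signal were used as deposited by the authors. Its log2 differences of expression, which the authors computed from public arrays, only set the inducible class.

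Each pol-II library was divided by its mean over promoters with a score above 100. S5P was compared with the mean of S7P for each promoter with limma 3.58.1 in R 4.3.3 (empirical Bayes with a trend, two-sided, Benjamini-Hochberg adjustment over all promoters, threshold 0.05), after the procedure was tested on simulated data. Class values used an exact two-sided permutation of the 3 libraries. Whether the S7P replicates came from separate cultures was not established from the labels, so p-values measure the spread between these samples. The study's own summary lists replicates for S5P, while the series holds a single S5P library without a replicate number. Whether that library is one of the replicates or a pool of them was not established. A CGI needed over 50% GC and a CpG ratio (observed over expected) over 0.6 in the 200 bp on either side of the start. Patterning is the sum over bins of the rescaled mean active H3K4me1 profile times the deviation of occupancy from its mean. Symbols matched 24920 promoters (96.3%) in RefSeq names of GRCm38.p6, while sequence and coordinates are mm9. In gene lists each start was counted once.

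Members and gene lists were chosen with earlier results of these data known. Named promoters were the 3 lowest and 3 highest differences of each list, all inducible TNF-α targets, the 10 largest negative and positive differences at well-filled expressed promoters, and 5 example promoters (Mcm5, Mrpl49, Ccl2, Rnd1 and Nfkbib). Since no promoter passed the test, the last were taken by size where S5P lay outside the S7P pair by more than its gap. A part of these is described. Alternatives covered scaling, coverage, windows, the prior variance, all 11 single fibroblast libraries and each S7P replicate left out.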

Additional observations from a re-analysis of the deposited data

Results flagged for a closer look

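Promoters below the coverage minimum, which the comparisons above leave out, also differed between the antibodies. At 3913 active promoters with a score of 100 or less the NDR ratio was 0.778 and 0.724 in the S7P replicates and 0.469 in S5P, a difference from mean S7P of −0.282. It was listed because data outside the main comparison held a difference larger than at the inactive promoters of the same coverage, where 5160 promoters had 0.961 and 0.976 in S7P and 0.986 in S5P, a difference of 0.0181. An exact permutation of 3 libraries cannot pass 0.05 for these values.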

How the results depend on the processing

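No paired analysis was possible because the S5P library carries no replicate number. The count of 0 held for each measure as deposited, with a constant prior variance, without a score filter, at a score above 200, with 80% of bins filled and in the other window or template. With 11 single fibroblast libraries in the fit, limma called 20 promoters (0.148%) for TSS and 95 (0.701%) for +1 occupancy, and without one S7P replicate in turn, where only H3K4me1 libraries give the spread, 77 to 90 (0.568% to 0.664%) and 103 to 120 (0.760% to 0.885%). On square-rooted occupancy it called 1.52% for the +1 window, all higher in S5P. The NDR ratio difference of active promoters was −0.306 with a window of −100 to 50 bp and −0.231 at a score above 200, and that of inducible promoters −0.271 with the window. With 80% of bins filled it was −0.241 at inducible promoters, and at inactive promoters it turned to −0.0483. The median TSS difference of active promoters was −0.337 (window), −0.263 (score) and −0.328 (80% filled), that of inducible promoters −0.287, −0.186 and −0.295, and that of inactive promoters −0.0665 with 80% filled. Without one S7P replicate it was −0.289 to −0.253 at active and −0.219 to −0.178 at inducible promoters. The +1 difference, whose alternatives were chosen after seeing the data, was 0.635 with a window of 100 to 160 bp, 0.472 (score) and 0.564 (80% filled) at active promoters, and 0.0680 (score) and 0.154 (80% filled) at inactive ones. On occupancies as deposited the median TSS difference was −0.526 for histone genes and 0.0941 for small RNAs. Without one S7P replicate the list medians ranged from −0.211 to −0.159 (TNF-α targets), −0.397 to −0.318 (immediate early), −0.240 to −0.183 (kinases, phosphatases and pausing factors), −0.297 to 0.127 (myeloid markers), −0.405 to −0.298 (ribosomal proteins), −0.447 to −0.426 (histones) and 0.0792 to 0.0839 (small RNAs). The causes were not tested. Of 99 named promoters, the TSS difference took the other sign at 6 without S7P replicate 1 and at 9 without replicate 2, among them the Lif and Tnip1 starts whose sequences are shown. None of the 99 was called for TSS occupancy with 11 libraries. With 1 S5P library and no depth for each library, counting error at a single promoter could not be given.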
